A study of Mus musculus with 12 samples.

Results

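The genotype by stage interaction of oocyte maturation compares how polysome-bound mRNA differs between stages in oocytes without amphiregulin with how it differs in wild-type oocytes. All 12 of the 12 arrays of the series entered it, and all 16579 genes that could be named were tested. Polysome-bound mRNA carries several ribosomes at once and stands for mRNA in translation. For each gene the interaction is the knockout's MII minus GV difference less the wild type's, on the log2 scale. A value of 1 means that the knockout's change was higher by a factor of 2, and a negative value means that it was lower. The same number is the genotype difference at MII less that at GV.

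The 4 groups held 3 arrays each. They were wild-type oocytes at the germinal vesicle (GV) stage, wild-type oocytes at metaphase II (MII), and amphiregulin -/- (Areg -/-) oocytes at GV and at MII. The strain label was C57BL/6J 129Sv in every group. All mice received PMSG, which stimulates follicle growth, and 48 h later hCG, the stand-in for the luteinising hormone surge, for 0 h (GV) or 14 h (MII). By their titles, the 3 arrays in each group are biological replicates. The sources used here give neither the ages of the mice, nor the number of animals or oocytes per sample, nor how the null allele was made. The p values therefore rest on sample-to-sample spread, which may be partly technical. Fewer oocytes in a sample and less mRNA per oocyte cannot be told apart on such arrays, nor can ribosome loading and transcript amount.

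Amphiregulin is an EGF-family ligand that granulosa cells make after the ovulatory hormone surge. It activates the EGF receptor on the cumulus cells around the oocyte, which expand and release the oocyte from prophase arrest. The fully grown oocyte does not transcribe, so its maturation relies on stored maternal mRNAs whose poly(A) tails and ribosome loading change between GV and MII. An interaction asks whether the somatic ligand alters that change, as opposed to a difference between genotypes that is there at both stages.

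No gene passed the interaction test. With limma and Benjamini-Hochberg adjustment over all 16579 genes, 0 genes had an adjusted p under 0.05 (0%), and the lowest adjusted p was 0.271. At an unadjusted p under 0.05 there were 772 genes, which is 4.66% of those tested. Of these, 310 lay above 0 (1.87%) and 462 below 0 (2.79%). The count of 772 moved to 1441 when knockout MII 1 was left out, with 643 above 0 and 798 below. Those above 0 numbered 195 without knockout GV 2. Leaving out knockout MII 1 or knockout MII 3 each called 1 gene. Leaving out any 1 of the other 11 arrays gave 585 to 1002 genes. The p values of all genes were spread about evenly between 0 and 1.

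The stage changes of the genotypes lay close together. Across genes, Pearson's r between the wild-type and knockout changes, which share no arrays, was 0.855 and Spearman's rho was 0.762. Genes are not independent replicates, so no p is given. The wild-type changes had a standard deviation of 1.28 over genes, the knockout changes 1.35 and the interaction 0.709. The median absolute interaction was 0.386, below the median standard error (SE) of a single gene's interaction, 0.518.

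The arrays limited how small an interaction could be shown. The median distance from a gene's interaction to either bound of its 95% confidence interval was 1.14. The interval lay within 1 either side of 0 for 2379 genes (14.3%) and within 2 either side for 11178 genes (67.4%). A gene of median SE that passed alone would have needed an interaction of 4.49, which is 22.5-fold. For most genes an interaction of moderate size was therefore not detectable with 3 arrays per group, and it is not shown to be absent.

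**Figure D1:**
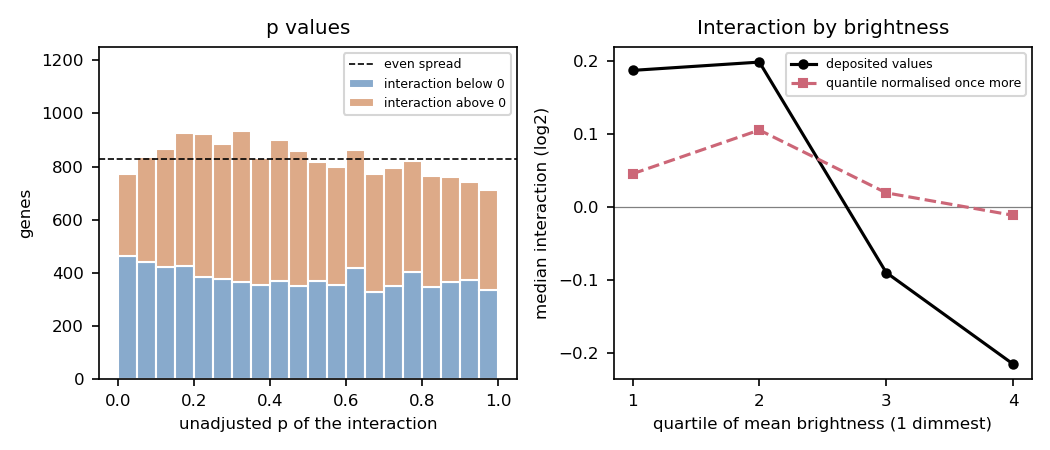
Left, number of genes by unadjusted p of the interaction in bins of 0.05, split by sign, with the even spread as a dashed line. Right, median interaction (log2) in quartiles of mean brightness. The lowest bin holds 772 genes, and the median runs from 0.19 in the dimmest to -0.21 in the brightest quartile of the deposited values.

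The sign of the interaction went with brightness. Its median was 0.19 and 0.20 in the dimmer quartiles of mean level, -0.09 in the third quartile and -0.21 in the brightest. In the brightest quartile 188 genes lay below 0 at an unadjusted p under 0.05 and 36 above. In the dimmest quartile it was 29 below and 80 above. The spread of values on an array moved with the groups too. Wild-type arrays had an interquartile range of 4.37 ± 0.35 at GV and 3.82 ± 0.32 at MII (SD, n = 3). Knockout arrays had 4.55 ± 0.14 at GV and 3.58 ± 0.37 at MII. Its own interaction of -0.416 did not pass a two-sided exact permutation of genotype labels within stage (p = 0.265, smallest possible 0.005). After a further quantile normalisation the brightness medians lay between -0.01 and 0.11, and 411 genes lay below 0 and 368 above. The part of the array spread in single genes was not tested beyond these fits. The Gapdh control probe sets at the transcript's 3' end less those at its 5' end, a measure that reflects RNA integrity and priming, had an interaction of -1.01 (exact permutation p = 0.135), and that of Actb 0.712 (p = 0.27).

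Areg, the targeted gene, was near the lowest values of the arrays throughout. Its log2 intensity in wild type was 2.08, 2.30 and 2.70 at GV and 2.59, 2.94 and 2.62 at MII. The knockout values were 2.40, 2.60 and 2.47 at GV and 2.45, 2.55 and 3.03 at MII. All 4 groups overlap. The interaction was -0.17 [-0.93, 0.59] (limma, adjusted p = 0.959; brackets hold 95% confidence intervals throughout), and these values could not check the genotype labels.

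Dazl, a germ cell RNA-binding protein that promotes translation of stored mRNAs, had nearly equal stage differences. Its values were 10.29, 10.31 and 10.57 in wild-type GV and 12.23, 12.07 and 12.28 in wild-type MII. In the knockout they were 9.71, 9.96 and 9.52 at GV and 11.57, 11.35 and 11.59 at MII. All knockout arrays lay below all wild-type arrays of the same stage, by 0.66 at GV and 0.69 at MII on average, and the interaction was -0.03 [-0.67, 0.62] (limma, adjusted p = 0.991). Such a difference at both stages cancels in the interaction. On the deposited values, Dazl's interval excludes an interaction as large as 1 in either direction. After scaling arrays to the same spread Dazl stood at 0.39, and its interval there is not given.

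Tpx2, a spindle assembly factor that activates Aurora A, overlapped between stages in both genotypes. Its values were 9.23, 9.21 and 9.75 in wild-type GV and 9.62, 10.13 and 10.23 in wild-type MII. In the knockout they were 9.65, 9.27 and 9.23 at GV and 10.03, 9.62 and 10.54 at MII. The interaction was 0.08 [-0.84, 1.00] (limma, adjusted p = 0.981). All 5 Tpx2 probe sets held the same values, so they are not independent measurements.

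Il7, a cytokine gene best known from lymphocyte development, had values of 8.10, 7.42 and 7.13 in wild-type GV and 10.88, 10.06 and 9.71 in wild-type MII. In the knockout they were 7.66, 8.12 and 7.51 at GV and 10.95, 10.26 and 10 at MII. All MII arrays lay above all GV arrays, while the genotypes overlapped at each stage. The interaction was -0.02 [-1.21, 1.17] (limma, adjusted p = 0.997), an interval wide enough to hold a factor above 2 either way.

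Ccnb1, the cyclin that activates Cdk1 for entry into M phase, differed by 2.14 ± 0.26 between stages in wild type and by 2.09 ± 0.26 in knockout oocytes (SE, n = 3). Its MII values lay between 12.97 and 13.16 over both genotypes and its GV values between 10.37 and 11.39. The interaction was -0.05 [-0.85, 0.74]. Mos, the kinase upstream of MAPK that holds the egg at MII, differed by 1.35 ± 0.27 and 1.46 ± 0.27, and its interaction was 0.12 [-0.72, 0.96]. Neither passed (limma, adjusted p = 0.984 and 0.973), and on the deposited values both intervals stay within 1 of 0. After scaling arrays to the same spread Ccnb1 stood at 0.59, and its interval there is not given.

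**Figure D2:**
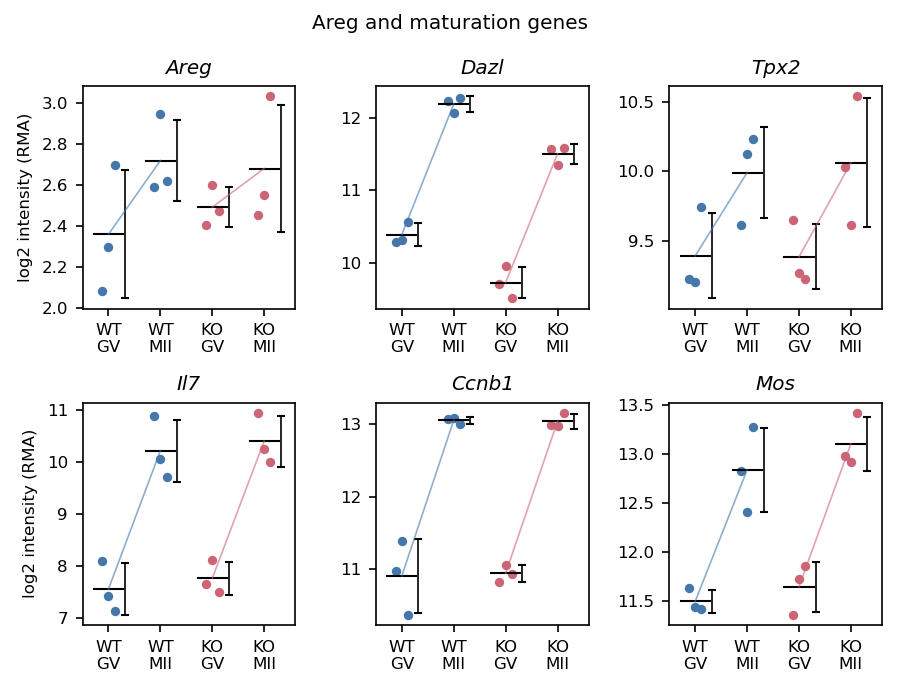
Log2 intensity of 6 genes in each of the 12 arrays (points), with group means (horizontal bars), SD (error bars, n = 3) and lines joining the stage means of wild type (WT, blue) and Areg -/- (KO, red); each axis has its own range and does not start at 0. The lines of Dazl, Tpx2, Il7, Ccnb1 and Mos run nearly parallel, with interactions between -0.05 and 0.12.

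The genes with the lowest p in each direction are described next, 10 per direction, as values and not as calls. Their absolute interactions ran from 1.42 to 4.91 and their adjusted p from 0.271 to 0.741. The genotype difference was larger at MII than at GV for 7 of the 10 below 0 and for 7 of the 10 above 0. That share was not counted over all genes, so it describes these 20 alone. Only 2 of the 20 had more than 1 probe set, Ccl25 and Kif21a, and these had the same sign. The unused Kif21a probe sets all gave the same interaction, 1.74, beside 1.70 for the one used. Their shared sign is therefore not an independent check.

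Among genes below 0, some had a lower level at MII in both genotypes, with the wider stage difference in the knockout. Mrpl58, a mitoribosomal protein that releases peptides from stalled ribosomes, had the lowest p of all genes. Its wild-type values were 10.84, 10.96 and 11.30 at GV and 8.66, 8.42 and 8.41 at MII. Its knockout values were 11.23, 11.18 and 11.20 at GV and 6.61, 6.63 and 6.81 at MII. The 3 knockout MII arrays lay below every other array, and the interaction was -1.98 ± 0.29 [-2.62, -1.34], 3.94-fold in size (unadjusted p = 2.8e-05, adjusted p = 0.271).

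Uimc1, a ubiquitin-binding protein of the BRCA1-A DNA repair complex, had the same shape. It stood at 9.26, 9.43 and 9.16 in wild-type GV and 7.14, 6.94 and 6.97 in wild-type MII, and at 9.79, 9.22 and 10.14 in knockout GV and 5.08, 4.04 and 4.82 in knockout MII. The interaction was -2.81 ± 0.44 (adjusted p = 0.271). Fbxw13, an F-box gene, lay at 8.13, 8.91 and 8.88 in wild-type MII and 6.65, 6.33 and 6.61 in knockout MII, with GV values of 11.62 to 12.16 in both genotypes. Its interaction was -1.82 ± 0.36 (adjusted p = 0.475). Fam229b had an interaction of -2.83 ± 0.55, with 5.87 to 6.97 in wild-type MII against 3.97 to 4.81 in knockout MII. In each of these 4 genes the genotypes did not overlap at MII. The genes were picked for a low p from the same values, so this is no further support. How many of all genes did so was not counted.

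Clybl, a mitochondrial enzyme that breaks down citramalyl-CoA, had the largest interaction of all genes below 0. It stood at 9.54, 9.77 and 8.08 in wild-type GV and 10.19, 8.43 and 10.90 in wild-type MII, which overlap. In the knockout it stood at 9.74, 9.38 and 9.08 at GV and at 4.91, 5.70 and 4.99 at MII. The interaction of -4.91 ± 0.85 [-6.79, -3.03] had an adjusted p of 0.356. Slc4a3, an anion exchanger gene, differed instead at GV. Its knockout GV values of 9.85, 10.01 and 10.73 lay above the wild-type ones of 7.66, 7.63 and 7.81, while at MII the ranges were 6.34 to 7.28 and 6.33 to 7.02. Its interaction was -2.35 ± 0.45 (adjusted p = 0.452).

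In the other 4 genes below 0 the stages separated without overlap in both genotypes, in opposite directions. Reep6, an endoplasmic reticulum membrane-shaping protein, stood at 6.61, 5.31 and 6.40 in wild-type GV and 8.55, 9.92 and 8.44 in wild-type MII, and at 7.73, 8.0 and 9.07 in knockout GV and 7.03, 7.21 and 7.24 in knockout MII. The stages did not overlap in either genotype, and the interaction was -3.97 ± 0.68 [-5.47, -2.46] (adjusted p = 0.356). Nrm, an inner nuclear membrane protein, had an interaction of -1.97 ± 0.30 (adjusted p = 0.271) on a low level of 3.42 to 5.10, where the lower quartile of an array lay at 3.88 to 4.41. Ddx10, an RNA helicase of ribosome biogenesis, had -2.83 ± 0.52 and Rhoh, a GTPase gene of blood cells, had -2.65 ± 0.50 (adjusted p = 0.452 for both). Each of the 4 had a genotype difference of one sign at GV and of the other at MII, such as 2.16 and -1.81 for Reep6. Mrpl58, Uimc1, Clybl and Fam229b did too, with smaller differences at GV.

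Among genes above 0, Fgf16, a secreted fibroblast growth factor, had a higher level in knockout MII alone. It stood at 4.57, 4.74 and 4.82 at GV and 4.72, 5.14 and 4.57 at MII in wild type. In the knockout it stood at 4.12, 5.18 and 4.40 at GV and 6.49, 7.77 and 7.51 at MII. The interaction was 2.59 ± 0.52 [1.45, 3.73] (adjusted p = 0.518). Kif21a, a kinesin that restrains microtubule growth, had the same shape, at 6.82, 7.43 and 6.62 in knockout MII against 4.16 to 5.18 elsewhere. Its interaction was 1.70 ± 0.42 (adjusted p = 0.705). Ppp1r1a, an inhibitor of protein phosphatase 1 that protein kinase A switches on, had 5.15 to 5.49 in knockout MII against 3.95 to 4.88 elsewhere and an interaction of 1.42 ± 0.33 (adjusted p = 0.567).

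Of the other genes above 0, Ctif, Ndufb8 and Supt3 had a narrower stage difference in the knockout, and Nelfb had one of opposite sign. Ctif, a factor that links the nuclear cap-binding complex to translation, stood at 7.95, 8.86 and 7.74 in wild-type GV and 5.35, 4.04 and 3.35 in wild-type MII. In the knockout it stood at 7.83, 7.82 and 7.32 at GV and 6.20, 7.43 and 7.02 at MII. The interaction was 3.16 ± 0.72 (adjusted p = 0.562). Ndufb8, a subunit of respiratory complex I, stood at 8.08, 8.90 and 7.66 in wild-type MII and 9.31, 9.62 and 9.86 in knockout MII, from 11.82 to 12.69 at GV. Its interaction was 1.90 ± 0.44 (adjusted p = 0.577). Supt3, a subunit of the SAGA transcription coactivator, had 1.89 ± 0.45, with 8.22 to 8.92 in wild-type MII against 9.66 to 10.07 in knockout MII. Nelfb, a subunit of the negative elongation factor, had 1.94 ± 0.47, with stage differences of -1.08 in wild type and 0.86 in the knockout that separated without overlap in both.

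The remaining 3 differed more at GV. Klhl30, of the kelch-like family, stood at 5.65, 7.19 and 6.77 in wild-type GV against 3.59 to 4.29 in knockout GV and had an interaction of 3.49 ± 0.65 (adjusted p = 0.452). Syt9, a synaptotagmin of calcium-triggered exocytosis, stood at 4.95, 3.99 and 5.14 in wild-type GV and between 2.96 and 4.0 in the other groups. Its interaction was 2.38 ± 0.41 (adjusted p = 0.356). Its stage differences, -1.59 in wild type and 0.79 in the knockout, separated without overlap in both. Ccl25, a chemokine gene, stood at 8.60 to 9.09 in wild-type GV against 6.42 to 7.80 in knockout GV, with 2.01 ± 0.50 (adjusted p = 0.741). For Klhl30 and Syt9 most values lay at or below the lower quartile of the arrays outside wild-type GV.

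**Figure D3:**
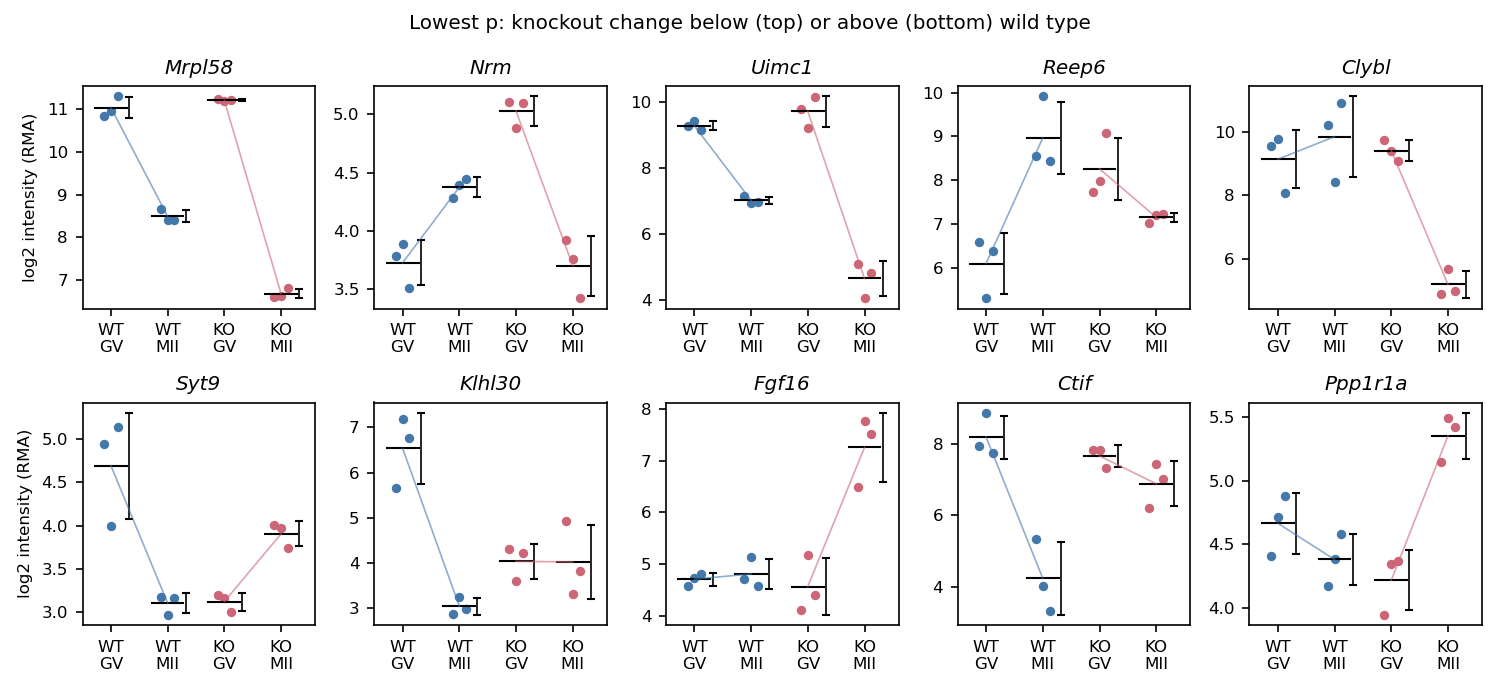
Log2 intensity in each of the 12 arrays (points), group means (horizontal bars) and SD (error bars, n = 3) for the 5 genes of lowest p below 0 (top) and above 0 (bottom); each axis has its own range and does not start at 0. Lines join the stage means of wild type (WT, blue) and Areg -/- (KO, red) and cross or spread apart, yet no adjusted p was under 0.271.

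**Figure D4:**
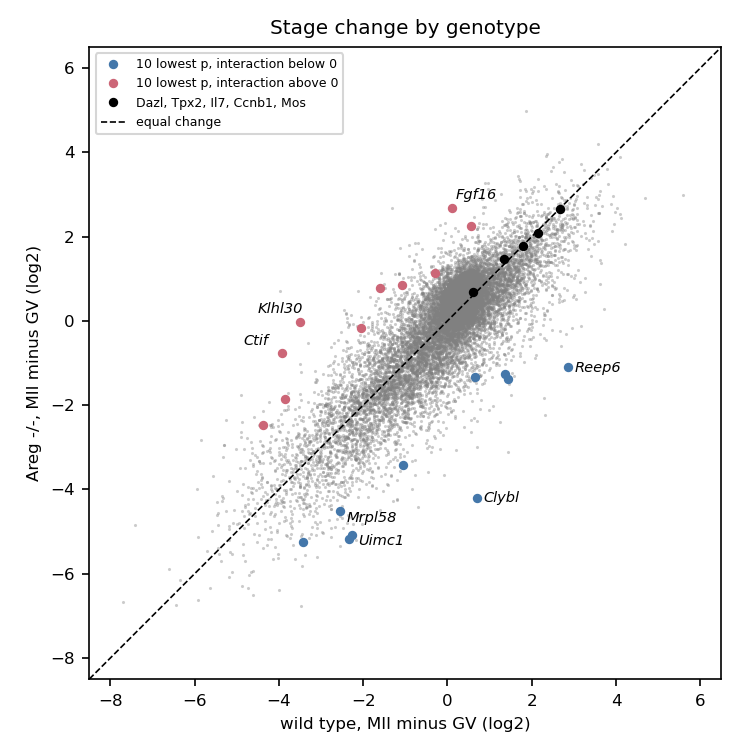
MII minus GV in wild type (x, log2) against Areg -/- (y, log2) for 16579 genes (grey), with the dashed line of equal change. The 20 genes of lowest p lie off the line, Clybl farthest below it with an interaction of -4.91, while Dazl, Tpx2, Il7, Ccnb1 and Mos lie on it.

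Stage groups that separated in opposite directions were few. For 20 genes (0.121% of those tested) all wild-type MII arrays lay above all wild-type GV arrays and all knockout MII arrays below all knockout GV arrays. For 18 genes (0.109%) the order was the other way round. Of these 38 genes, 35 had an unadjusted p under 0.05, and the lowest adjusted p among them was 0.271, that of Nrm. The order of the arrays and the p come from the same values, so the 35 are no further support.

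In the gene lists that follow, 0 members passed in either direction, as over all genes, so each is described by its median and by members with an unadjusted p under 0.05. The median over all genes was 0.06, or 0.05 after a further quantile normalisation and 0.04 after scaling arrays to the same spread. Each list's median is followed by its rescaled values in that order. Where leaving out 1 array moved a named member's interaction toward or past 0 by over 1.5 times, the array that did so most is given with the value without it, and in some cases others. Members named beyond the highest and lowest of a list were picked for that p after their values were seen. Many of these lists are bright, and the brightest quartile of genes had 4.54% below 0 and 0.869% above 0 at that p, against 2.79% and 1.87% of all genes.

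Genes of the EGF system had a median of 0.19 (0.09 and -0.02 rescaled), with 0 of 13 members at an unadjusted p under 0.05 in either direction. Egf, the founding ligand of the family, was the lowest at -1.20 [-2.45, 0.05]. It stood at 10.57, 9.47 and 9.77 in wild-type MII and at 8.37, 8.42 and 9.44 in knockout MII, from 7.0 to 8.03 at GV in both genotypes. The interval of Egf holds 0 (limma, adjusted p = 0.943). Erbb3, a receptor that pairs with other family members, was the highest at 0.94 [-1.70, 3.58], with knockout MII 3 at 8.39 and the other 11 arrays between 3.25 and 5.00. Without that array it was -0.35.

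The PI3K, AKT and mTOR pathway couples growth factor signals to cap-dependent translation. Of 25 members, 3 lay below 0 and 0 above at an unadjusted p under 0.05, with a list median of -0.22 (-0.06 and 0.15 rescaled). These 3 were negative regulators of the pathway. Eif4ebp2, which binds eIF4E and blocks cap-dependent initiation until mTOR phosphorylates it, stood at 7.46, 7.02 and 8.06 in wild-type GV and 9.87, 9.25 and 10.21 in wild-type MII. In the knockout it stood at 7.51, 8.24 and 8.50 at GV and 8.67, 8.45 and 8.05 at MII. Its interaction was -1.96 ± 0.52 [-3.11, -0.80] (unadjusted p = 0.0033, adjusted p = 0.927). Deptor, an inhibitor within the mTOR complexes, had -1.94 ± 0.69, and Tsc2, part of the complex that turns off Rheb, -1.88 ± 0.71 (adjusted p = 0.943 for both). Pik3cb, a catalytic subunit of PI3K, was the highest at 1.65 [-0.32, 3.61].

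Genes of cytoplasmic polyadenylation and translational control set which stored mRNAs are used. Of 25 members, 1 lay below 0 at an unadjusted p under 0.05, namely Papolg, a poly(A) polymerase, at -1.66 ± 0.57 (adjusted p = 0.943). Papolg stood at 10.27, 10.95 and 10.25 in wild-type MII and 9.25, 8.23 and 9.00 in knockout MII, and between 7.97 and 9.28 at GV. The list median was -0.12 (0.08 and 0.39 rescaled). The 95% interval lay within 1 of 0 for 8 of the 25.

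Genes of cAMP control set how long the oocyte stays in prophase arrest. Adcy9, an adenylyl cyclase, was the lowest of 12 at -2.41 ± 0.50 [-3.50, -1.32] (unadjusted p = 5.0e-04, adjusted p = 0.526). It stood at 6.46, 6.90 and 6.43 in wild-type GV and 8.49, 8.03 and 9.35 in wild-type MII, and at 7.04, 7.64 and 7.53 in knockout GV and 7.40, 6.65 and 7.01 in knockout MII. The stages separated in wild type and overlapped in the knockout. Npr2, the receptor that makes cGMP in the follicle's somatic cells, was the highest at 0.44 [-1.07, 1.94], and -0.13 without wild-type GV 3 or 0.13 without knockout MII 2. The list median was 0.01 (0.22 and 0.23 rescaled).

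Among cyclins, the Cdk1 switch and the anaphase-promoting complex (APC/C), 3 of 29 lay below 0 and 0 above at an unadjusted p under 0.05. The list median was -0.13 (-0.02 and 0.16 rescaled). Wee2, the oocyte kinase that inhibits Cdk1, had -0.91 ± 0.32, Cdc25b, the phosphatase that activates Cdk1, -1.52 ± 0.64, and Cdc16, an APC/C subunit, -1.89 ± 0.67 (adjusted p = 0.943 for each). The kinase and the phosphatase oppose each other. Ccnb3, a meiotic cyclin, was the lowest at -2.14 [-4.51, 0.24], and Fzr1, an activator of the APC/C, the highest at 0.81 [-1.80, 3.42]. Ccnb3 was -1.16 without knockout MII 3. Fzr1 was 0.014 without knockout MII 3, 0.25 without wild-type MII 1, 0.49 without knockout GV 1 and 0.52 without knockout MII 2.

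Among spindle and kinetochore genes 3 of 30 lay below 0 and 0 above at that p, with a median of -0.36 (-0.21 and -0.02 rescaled). Kif11, the kinesin that pushes spindle poles apart, stood at 9.81, 9.69 and 9.86 in wild-type MII and 9.18, 9.06 and 9.18 in knockout MII, from 7.15 to 8.13 at GV. Its interaction was -1.03 ± 0.32, that of Kif4, a chromosome-bound kinesin, -1.29 ± 0.51 and that of the checkpoint gene Bub3 -1.11 ± 0.43 (adjusted p = 0.943 for each). Kif18a, which dampens chromosome movements, was the lowest at -2.17 [-6.16, 1.82], and Prc1, which bundles midzone microtubules, the highest at 0.74 [-0.09, 1.57]. Kif18a was -0.92 without wild-type GV 3 and -0.93 without knockout GV 2, and Prc1 was 0.49 without knockout MII 2.

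The DNA replication list had the lowest median, at -0.56 (-0.31 and -0.27 rescaled). Of 32 members, 3 lay below 0 and 0 above at an unadjusted p under 0.05. Pole, the catalytic subunit of DNA polymerase epsilon, had -2.92 ± 0.97 [-5.05, -0.80], and the helicase genes Mcm4 and Mcm6 had -0.92 ± 0.36 and -0.77 ± 0.33 (adjusted p = 0.943 for each). Pole stood at 8.41, 9.86 and 9.49 in wild-type MII and 7.18, 5.08 and 8.20 in knockout MII, where the arrays were far apart. Mcm3 was the highest at 0.95 [-0.16, 2.06], and 0.54 without knockout MII 2.

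For cohesin, synapsis and recombination genes the median over 22 was -0.11 (0.03 and 0.07 rescaled). Dmc1, the meiotic recombinase, was the member at an unadjusted p under 0.05, at 1.01 ± 0.39 (adjusted p = 0.943). Sgo2a, the protector of centromeric cohesin, was the lowest at -2.41 [-5.34, 0.51]. Knockout GV 2 stood at 13.27 against 9.44 and 8.49 in the other knockout GV arrays, and without it Sgo2a was -0.98. Of 21 maternal-effect and reprogramming factors 0 reached that p, with a median of -0.19 (-0.03 and 0.22 rescaled). Their extremes were Dnmt3l, the cofactor of de novo DNA methylation, at -1.34 [-3.17, 0.49], and Padi6, of the subcortical complex and lattices, at 0.32 [-0.84, 1.49]. Dnmt3l was -0.66 without knockout MII 3, and Padi6 -0.066 without wild-type MII 1.

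Of 15 BCL2 family genes 0 reached an unadjusted p under 0.05, with a median of 0.32 (0.27 and 0.40 rescaled). The extremes were the pro-death gene Bcl2l11 (-0.45, and -0.22 without wild-type MII 1) and the survival gene Mcl1 (1.59, and 0.94 without knockout MII 2). Of 17 genes of egg calcium signalling and cortical granules 0 did, with a median of -0.05 (0.18 and 0.07 rescaled). Ppp3ca, a calcineurin subunit, was lowest at -0.85, and -0.42 without knockout GV 1. Stim1, the store calcium sensor, was highest at 0.81, and 0.50 without knockout MII 3.

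The lists with the widest stage differences had interactions on both sides of 0. The 75 oxidative phosphorylation subunits had a median MII minus GV of -3.30 in wild type and -3.38 in the knockout, and a median interaction of 0.13 (0.24 and 0.45 rescaled). At an unadjusted p under 0.05, 5 lay below 0 and 2 above. The 5 were Cox5b (-2.18), of cytochrome c oxidase, and the complex I genes Ndufa9 (-2.40), Ndufs7 (-1.51), Ndufa10 (-1.49) and Ndufa8 (-1.32). The 2 were Ndufb8 and the complex I gene Ndufs8 (1.40), so subunits of 1 complex stood on both sides. Ndufa9 stood at 8.86, 7.40 and 7.61 in wild-type MII and 4.61, 5.25 and 6.69 in knockout MII, from 11.68 to 12.23 at GV. Ndufa12 was the highest at 2.00 [-0.92, 4.91], and 0.80 without wild-type GV 2.

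The 29 cytosolic ribosomal proteins had stage medians of -2.76 and -2.18 and a median interaction of -0.09 (-0.02 and 0.11 rescaled). Of these, 1 lay below and 1, Rplp2 (1.14), above at that p, while Rpl31 at -1.97 [-4.29, 0.36] and Rps4l at 1.44 [-1.59, 4.46] were the extremes. Rpl31 rested on knockout MII 3, at 6.28 against 9.71 and 9.82, and was -0.80 without it. Rps4l was 0.39 without wild-type MII 2 and 0.44 without knockout MII 3. The 70 mitochondrial ribosomal proteins had stage medians of -2.01 and -2.23 and a median interaction of -0.25 (-0.07 and -0.0041 rescaled). Mrpl58 and Mrpl52 (-1.74) lay below and Mrps12 (1.49) above, and Mrps26 was the highest at 2.02 [-0.65, 4.70], and 0.89 without knockout MII 1. The 34 proteasome subunits had -1.60 and -1.77 and a median interaction of 0.06 (0.12 and 0.38 rescaled). Psmc2, an ATPase of the 19S cap, had 2.31 ± 0.87, with 7.45, 5.00 and 7.49 in wild-type MII and 8.57, 9.94 and 8.37 in knockout MII. Its interaction was 1.49 without wild-type MII 2. Psmb1 (1.52, and 0.91 without knockout MII 3) and Psmb11 (1.14) also lay above and Psma7 (-0.80) below, and Psmd11 was the lowest at -1.90 [-4.0, 0.20].

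The 244 zinc finger genes with 3-digit Zfp names had a median of 0.04 (-0.02 and -0.09 rescaled). At an unadjusted p under 0.05, 14 members lay below 0 (5.74%) and 3 above (1.23%), against 2.79% and 1.87% of all genes. The list's median level was at the 44.9th percentile. Zfp868 was the lowest at -3.12 [-5.12, -1.13]. It stood at 6.36, 3.78 and 5.66 in wild-type MII and between 1.75 and 3.85 elsewhere, so wild-type MII 2 overlapped a knockout GV array. Zfp963 was the highest at 2.40 [-0.63, 5.43], and 1.38 without knockout MII 1 or 1.39 without wild-type MII 2.

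**Figure D5:**
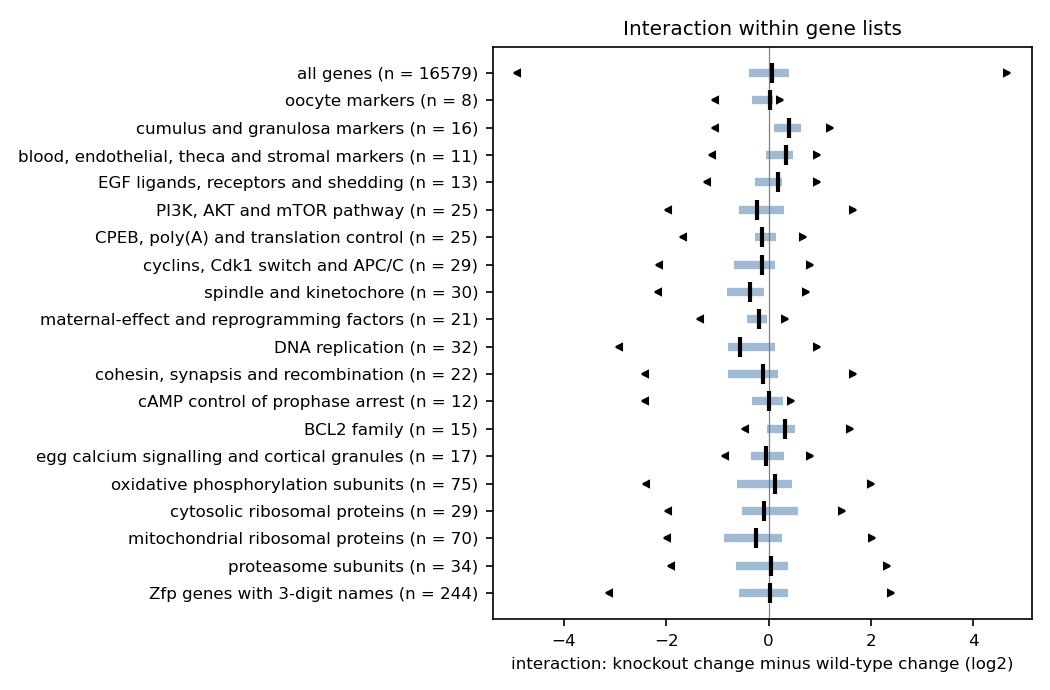
Interaction (log2) within each gene list and over all genes: median (black bar), middle range from lower to upper quartile (blue), and lowest and highest member (triangles), with the number measured in brackets. Medians run from -0.56 (DNA replication) to 0.41 (cumulus and granulosa markers), beside 0.06 over all genes.

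Markers of the oocyte were bright, while markers of other cell types were dim as lists, with exceptions. The 8 oocyte markers had a median level at the 99.2th percentile of all genes and a median interaction of 0.03 (0.15 and 0.71 rescaled). Figla, a transcription factor of oocytes, had -0.71 ± 0.31 at an unadjusted p of 0.044, Nobox was the lowest at -1.04 [-2.26, 0.19] and the zona gene Zp2 the highest at 0.23 [-0.75, 1.22]. Nobox was -0.62 without knockout MII 2, and Zp2 -0.0042 without wild-type MII 1. The 16 cumulus and granulosa markers lay at the 31.0th percentile, with medians of 4.42 at GV and 4.47 at MII in wild type and 4.58 and 4.78 in the knockout. Their median interaction was 0.41 (0.30 and 0.32 rescaled), and 0 of 16 reached an unadjusted p under 0.05, with Cyp19a1 (aromatase) at -1.04 and the FSH receptor gene Fshr at 1.20. Cyp19a1 was bright, between 7.62 and 10.84 over the arrays, and its interaction was -0.62 without wild-type GV 3. Fshr was 0.62 without knockout GV 2. The 11 markers of blood, vessels, theca and stroma had a median level at the 36.5th percentile and a median interaction of 0.35 (0.19 and 0.09 rescaled). Of these, Pecam1 (-1.11) and Emcn (0.96), both endothelial genes, stood on opposite sides at that p. Pecam1 was bright, between 8.24 and 11.46. Other markers of these cell types above the array medians of 5.61 to 5.79 included Hsd17b1 (mean 6.34) and C1qb (6.90). MII minus GV was -2.85 in wild type and -2.39 in the knockout for Hsd17b1. For C1qb it was -2.68 and -2.88. No marker's level can be read as 0 on these arrays, and the part of such cells in the results was not tested.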

How the data were processed

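Per the submitters' processing notes, the authors made the deposited log2 intensities with RMA, which corrects background, normalises quantiles between arrays and summarises each probe set. Its version and the probe set definition were not given in the sources used here. The deposited arrays still differed in spread, with interquartile ranges from 3.36 (knockout MII 2) to 4.67 (knockout GV 1). RNA from polysome fractions was amplified and hybridised, per the labels' protocols, although the molecule field names total RNA. The description fields speak of embryos and were not used. Of 23886 RefSeq probe sets, 21230 matched 1 symbol in a RefSeq table of GRCm38.p6, 0 matched several and 2656 matched none. The highest-mean probe set stood for each of 16579 genes, 3019 of which had more than 1. All 12 arrays entered 1 limma fit (limma 3.58.1, R 4.3.3, lmFit and eBayes) with a mean per group, and all were kept. Tests were two-sided with Benjamini-Hochberg adjustment, called at an adjusted p under 0.05. Errors are limma's SE unless SD is named. The fit was tested on simulated data.

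Members and lists were chosen with earlier results of these data known. The naming rule took every called gene, the 10 genes of lowest p per direction when fewer than 20 were called, Areg, Dazl, Tpx2, Il7, Ccnb1 and Mos, and each list's highest and lowest member; some of these members are not reported here. The alternatives were rescaling, covariates, weights, moderation, a brightness filter, other probe set rules, a replicate block and left-out arrays. There is no detection call, and precision is limited by how many arrays there are.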

Additional observations from a re-analysis of the deposited data

How the results depend on the processing

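The count of 0 called genes held under 9 of the 10 alternatives other than leaving out 1 array. Without the 3 arrays of narrowest spread 1 gene was called higher, Sowaha, for which 1 knockout MII array was left and stood alone (adjusted p = 0.024, and 0.943 with all arrays). Without 1 array the count was 0 to 1: Sdhaf1 was called lower without knockout MII 1 (adjusted p = 0.0217) and Cldn34d without knockout MII 3 (0.0468). These 3 genes were named after their values were seen, and the lone array of a group is assumed to vary like the other groups. The total of 772 genes at an unadjusted p under 0.05 was 395 among bright genes alone, where fewer genes were tested, and 585 to 1441 without 1 array. Those above 0 were 503 with array weights, 89 among bright genes and 195 to 643 without 1 array, beside 306 below 0 among bright genes and 324 to 798 without 1 array. The median interaction of all genes was 0.05 after a further quantile normalisation and 0.04 after scaling to the same spread, an alternative chosen after seeing the data.

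The named genes gave 823 values under these alternatives, of which 804 kept their direction, 19 turned and 0 passed. After a further quantile normalisation Dazl stood at 0.21, Il7 at 0.20 and Ccnb1 at 0.028, and after scaling they stood at 0.39, 0.33 and 0.59. With the spread as a covariate Tpx2 was -0.031, Il7 0.34, Ccnb1 0.084, Bcl2l11 0.018, Fzr1 -0.0089 and Npr2 -0.29. With array weights Tpx2 was -0.10, Ccnb1 0.17 and Mos -0.0089. Without the narrow arrays Il7 was 0.45, Mos -0.22, Erbb3 -0.11 and Fzr1 -1.37. Without 1 array the ranges were -0.13 to 0.085 for Dazl, -0.16 to 0.30 for Tpx2, -0.30 to 0.31 for Il7, -0.29 to 0.22 for Ccnb1, -0.10 to 0.34 for Mos, -0.35 to 1.59 for Erbb3, -0.13 to 0.87 for Npr2, -0.066 to 0.54 for Padi6 and -0.0042 to 0.53 for Zp2. The cause was not tested.

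With a replicate block 0 genes passed (lowest adjusted p = 0.343) and 925 had an unadjusted p under 0.05. Deviations of same-numbered arrays correlated at -0.122 to 0.258, over 0.1 in 10 of 18 pairs. The 6 pairs of number 1 lay at 0.142 to 0.193, those of number 2 at -0.122 to 0.123 and those of number 3 at -0.0964 to 0.258. An array correlated best with its own number, among the 3 arrays of another group, in 20 of 36 settings. In every other group 4 of 12 arrays did so. Pairing asked for over 0.1 in every pair, which was not met, and number 1 alone met it. Missing that rule does not show that same-numbered arrays were unrelated. Each of the 23886 RefSeq probe sets tested alone gave 0 calls (lowest adjusted p = 0.372), 2656 without a symbol included.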
